A study of Mus musculus with 12 samples.

Results

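A set of 11 genes was expressed selectively in MLL-ENL leukemia (ME), out of 35976 genes in the count table. The set holds every gene whose mean level was at least 3 CPM (counts scaled to library size) in ME and at least 8 times the mean in each of the other groups. Hox genes, the imprinted non-coding RNAs Meg3, Rian, Mirg and AF357359, and LOC101056014 and Lars2 are left out by the same rule. No Hox gene met both limits. A level of at least 3 CPM in ME was reached by 10665 genes. The genes were thus chosen by their measured CPM in these libraries, so every difference between ME and another group is a description of these genes and carries no test.

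RNA was sequenced from CD45.2+ cells that had been sorted by flow cytometry from bone marrow of C57BL/6 mice. The 12 libraries form 4 groups of 3. All carry the genotype CD45.2(+), together with MLL-ENL in ME, with MLL-AF9 in MA9 and with BRD9-NUTM1 in BN1, and with no fusion named in normal marrow (WT). The labels give no age, construct, promoter or recipient, and do not tell whether replicates are separate animals or separate leukemias. A p-value here therefore reflects the spread over these libraries alone, and that spread may be technical.

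In an MLL fusion, the front part of a histone methyltransferase (Kmt2a in the mouse) is joined to a partner such as ENL (Mllt1) or AF9 (Mllt3), both of which belong to complexes that promote transcription elongation. Such fusions bind a group of target genes and keep them transcribed in blood progenitors, HoxA genes and Meis1 being the best known. Genes of differentiated tissues, such as muscle or liver, are usually silent in blood progenitors.

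Library totals were 18292636 to 21693465 counts in ME, 18953495 to 22112345 in MA9, 21942608 to 25732049 in BN1 and 19170183 to 21432949 in WT. A level of 1 CPM stood for 18.3 to 25.7 counts over the libraries, and genes below 1 CPM rested on few counts. The summed level of 7 myeloid progenitor markers was 17317 to 17465 CPM in ME, 11651 to 12215 in MA9, 21730.3 to 22365 in BN1 and 1479 to 1572 in WT. Mpo, the peroxidase of primary granules, led this sum in ME at 7533 CPM. ME replicate 3 stood apart. Structural RNA-like genes took 1.88% of its counts, against 0.0999% to 0.115% in the other 11 libraries. This class holds genes with structural RNA types in RefSeq and a few added by name, among them Gm15564, LOC101056014 and Lars2.

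Of the 11 genes, 8 were high in all 3 ME libraries, and no ME library overlapped any other library. For these genes the lack of overlap largely follows from how they were chosen. These 8 are Nrap, Apoc1, Hif3a, Cpne8, Mmp12, Gm14139, D330045A20Rik and Adh6b, all annotated as protein-coding. The other 3, Rn7s1, Rn7s2 and Gm15564, were high only in ME replicate 3, and their ME libraries overlapped those of the other groups. In these bulk samples, fewer cells that express a gene and less RNA per cell cannot be told apart.

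**Figure D1:**
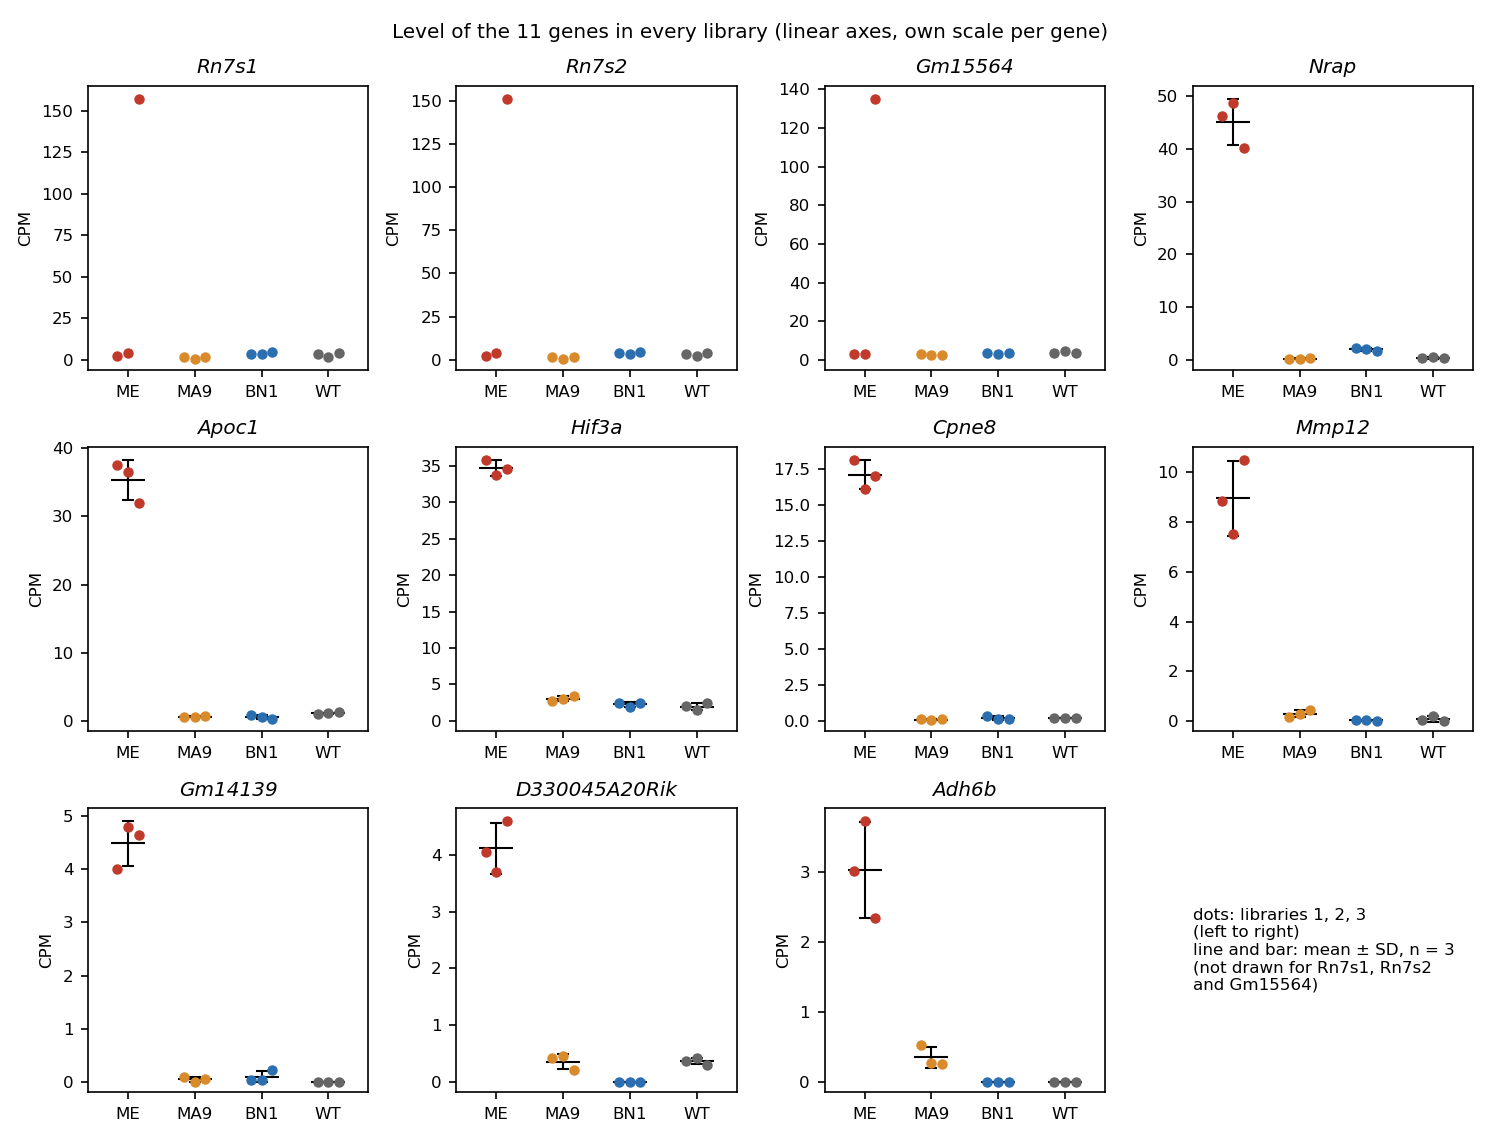
CPM (linear axis, own scale per gene) of the 11 genes in each of the 12 libraries, grouped as ME, MA9, BN1 and WT; dots are libraries 1 to 3, and line and bar are the mean and SD of 3, left out for the 3 genes that are high in a single ME library. For 8 genes all ME dots lie above every other dot, which largely follows from how they were chosen. Rn7s1, Rn7s2 and Gm15564 stand out in ME library 3 alone.

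The genes lie on 9 chromosomes, so most are not neighbours. Positions are from RefSeq on GRCm38.p6, the patch release of the mm10 build used by the authors. Hif3a and Apoc1 share chromosome 7 but are 2.63 Mb apart, and Rn7s1 and Rn7s2 share chromosome 12. Promoter windows of 300 bases, 250 before and 50 after the annotated start, were found in RefSeq for 7 of the 11 genes. Those of 4 genes described below are shown, the 4 with the highest ME level among the 8 genes that were high in all ME libraries and had a window. Capitals mark a motif match.

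Nrap, chr19:56389989-56390288, minus strand: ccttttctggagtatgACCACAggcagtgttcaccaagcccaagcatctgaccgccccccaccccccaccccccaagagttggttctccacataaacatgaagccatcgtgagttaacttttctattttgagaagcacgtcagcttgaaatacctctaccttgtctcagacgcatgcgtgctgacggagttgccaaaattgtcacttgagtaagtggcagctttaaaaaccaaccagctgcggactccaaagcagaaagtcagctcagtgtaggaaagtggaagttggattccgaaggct
Cpne8, chr15:90679339-90679638, minus strand: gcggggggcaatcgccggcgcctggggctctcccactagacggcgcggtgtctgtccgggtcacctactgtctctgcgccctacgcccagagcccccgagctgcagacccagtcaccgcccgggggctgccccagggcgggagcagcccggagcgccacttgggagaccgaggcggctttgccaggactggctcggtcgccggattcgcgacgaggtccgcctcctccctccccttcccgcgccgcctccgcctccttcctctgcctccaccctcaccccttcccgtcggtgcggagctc
Hif3a, chr7:17062378-17062677, minus strand: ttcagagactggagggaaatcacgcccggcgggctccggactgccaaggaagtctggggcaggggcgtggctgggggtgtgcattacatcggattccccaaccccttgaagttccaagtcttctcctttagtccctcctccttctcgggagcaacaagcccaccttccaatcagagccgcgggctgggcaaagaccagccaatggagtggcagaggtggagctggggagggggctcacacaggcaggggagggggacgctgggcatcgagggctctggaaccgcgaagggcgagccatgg
Mmp12, second annotated start, chr9:7347124-7347423, plus strand: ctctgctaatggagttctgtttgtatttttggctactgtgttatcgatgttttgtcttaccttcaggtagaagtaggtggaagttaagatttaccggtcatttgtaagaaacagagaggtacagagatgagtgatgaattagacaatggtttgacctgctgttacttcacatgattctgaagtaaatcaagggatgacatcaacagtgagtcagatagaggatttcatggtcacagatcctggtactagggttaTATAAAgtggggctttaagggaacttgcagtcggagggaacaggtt

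Both strands were searched for motifs that do not contain one another. TGACAG, bound by Meis and Tgif factors, was found in 19.2% of all 32851 mouse windows. The motif of Hox factors with Pbx, TGATTNAT, was found in 3.22%. The Runx motif TGTGGT was found in 16.8%, the Ets motif CCGGAAG in 8.86% and the TATA box TATAAA in 13.6%. Among the 10 windows of these genes there were 2 matches. The Nrap window held TGTGGT on the opposite strand, seen above as ACCACA, with its first base at -234 from the start site. The Mmp12 window held TATAAA at +5. The genes did not share a base composition either. The ratio of observed to expected CpG, with a median of 0.384 over all windows, was 0.806 for Cpne8, 0.470 for Hif3a, 0.438 for Nrap and 0.274 for this Mmp12 window.

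The product of Nrap, nebulin-related anchoring protein, is an actin-binding LIM protein of striated muscle, found at the ends of myofibrils in mouse. The gene covers chr19:56320037-56390062 on the minus strand. Nrap stood at 46.2, 48.8 and 40.2 CPM in the ME libraries (mean 45.1 ± 4.38, SD, n = 3). It stood at 0.158, 0.271 and 0.459 CPM in MA9, at 2.30, 2.19 and 1.71 CPM in BN1, and at 0.420, 0.626 and 0.307 CPM in WT. The ratio of mean CPM was therefore smallest against BN1. In pooled counts ME exceeded BN1 22.1-fold (95% interval 18.7 to 26.2), where the interval covers counting error only, as do all intervals and bounds below. Habp2 and Gm17197, which overlap Nrap, had 1 and 2 counts over all 12 libraries.

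Other muscle genes were not high in ME. A list of 10 skeletal muscle markers, drawn up after the level of Nrap had been seen, summed to 5.36 to 5.83 CPM in ME, 9.07 to 11.9 in MA9, 2.72 to 3.19 in BN1 and 14.4 to 15.6 in WT. Myh1 and Actn2, a myosin heavy chain and the actinin of the Z disc, had no counts in ME. Acta1, skeletal muscle actin, averaged 0.0154 CPM there. Mylpf, a myosin light chain, led the list in ME at 2.33 CPM, below its 7.36 CPM in WT.

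Apoc1 encodes a small apolipoprotein made by liver and macrophages, and lies beside Apoe at chr7:19689480-19692659 on the minus strand. It stood at 37.5, 36.5 and 31.9 CPM in ME (35.3 ± 2.95), against 0.580, 0.633 and 0.815 CPM in MA9. BN1 libraries held 0.878, 0.684 and 0.311 CPM, and WT libraries 1.12, 1.15 and 1.28 CPM. All 9 libraries other than ME were thus below 1.3 CPM. The 7 liver markers in the table, also listed after values had been seen, summed to 0.273 to 1.88 CPM in ME and 0.187 to 0.409 CPM in WT. Their sums were 0.0904 to 0.422 CPM in MA9 and 0.273 to 0.669 CPM in BN1. The highest ME sum was that of replicate 1, where Alb and Apoa1 stood at 0.494 CPM each. Neither had a count in ME replicates 2 and 3. A link of these markers to the Apoc1 level was not tested. The 7 macrophage markers summed to 113 to 119 CPM in ME, 202 to 211 in MA9, 188 to 211 in BN1 and 107 to 114 in WT. Vcam1 and Adgre1 gave most of this sum in ME, at 71.0 and 42.8 CPM. Vcam1 averaged 94.9 CPM in MA9, 51.95 in BN1 and 31.6 in WT, so its ME level lay below MA9 alone. Adgre1 averaged 108.6 CPM in MA9, 64.07 in BN1 and 45.68 in WT, and was lowest in ME. The complement gene C1qa was at 0.278 CPM in ME, 0.491 in MA9, 0.411 in BN1 and 9.32 in WT. The scavenger receptor Marco was at 0.0154 CPM in ME, 81.0 in BN1 and 0.0341 in WT, with no counts in MA9.

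Hif3a encodes an alpha subunit of the hypoxia-inducible factors. Some of its splice forms inhibit the other alpha subunits, and gene-level counts do not separate these forms. It lies at chr7:17030993-17062427 on the minus strand. Hif3a stood at 35.8, 33.7 and 34.5 CPM in ME (34.7 ± 1.10), the steadiest level of the 8 genes. The MA9 libraries held 2.74, 2.98 and 3.47 CPM, the BN1 libraries 2.43, 1.87 and 2.53 CPM, and the WT libraries 2.05, 1.46 and 2.40 CPM. Unlike the other 7, Hif3a therefore had a level above 1 CPM in every library. Epas1, a related alpha subunit examined after its values had been seen, averaged 0.497 CPM in ME. Hif1a, the widely expressed alpha subunit, averaged 115 ± 2.47 CPM in ME, 102 ± 2.53 in MA9, 147 ± 3.24 in BN1 and 72.8 ± 5.60 in WT.

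Cpne8 had the widest gap between ME and the other groups in ratio of means, 81.7-fold. It encodes a copine, a protein that binds membrane phospholipids in response to calcium, and spans chr15:90487481-90679388 on the minus strand. Cpne8 stood at 18.1, 16.1 and 17.0 CPM in ME (17.1 ± 1.0). It stood at 0.106, 0.0452 and 0.153 CPM in MA9, 0.334, 0.137 and 0.155 CPM in BN1, and 0.187, 0.209 and 0.205 CPM in WT. These low values rest on 6, 15 and 12 counts over the MA9, BN1 and WT groups. No gene within 200 kb of Cpne8 passed the filter on low counts.

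Mmp12 encodes macrophage elastase, a matrix metalloproteinase secreted by macrophages, in the metalloproteinase cluster at chr9:7344397-7360461 on the plus strand. Mmp12 stood at 8.85, 7.51 and 10.5 CPM in ME (8.95 ± 1.49). MA9 libraries held 0.158, 0.271 and 0.459 CPM, BN1 libraries 0.0418, 0.0456 and 0 CPM, and WT libraries 0.0467, 0.209 and 0 CPM. The lowest ME library thus held 163 counts, against at most 9 counts in any other library. In the same cluster, Mmp13 averaged 0.0307 CPM in ME and Mmp1b had no counts in any library.

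Adh6b encodes an alcohol dehydrogenase at chr3:138341412-138358859 on the plus strand. It stood at 3.02, 3.73 and 2.35 CPM in ME (3.03 ± 0.692), against 0.528, 0.271 and 0.255 CPM in MA9. No read was counted in any BN1 or WT library. With a floor of 3 counts over a group, Adh6b was at least 73.3-fold higher in ME than in BN1 and at least 61.6-fold higher than in WT. Its ME level lay just above the limit of 3 CPM, and its ratio to MA9 of 8.64 just above the 8-fold limit.

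D330045A20Rik, named Radx in RefSeq, encodes a protein that binds single-stranded DNA at replication forks, as described for the human protein. It lies at chrX:139480367-139554584 on the plus strand. Its levels were 4.05, 3.69 and 4.59 CPM in ME (4.11 ± 0.455). The MA9 libraries held 0.422, 0.452 and 0.204 CPM, the BN1 libraries none, and the WT libraries 0.373, 0.417 and 0.307 CPM. The gene was therefore at least 97.5-fold higher in ME than in BN1, but 11.3-fold higher than in MA9 (interval 7.28 to 18.3). Gm14139, a protein-coding gene model at chr2:150181755-150193279 on the plus strand, stood at 4.0, 4.79 and 4.65 CPM in ME (4.48 ± 0.420). It had 3 counts over the MA9 libraries, 8 over the BN1 libraries and none over the WT libraries, so that ME exceeded WT at least 89.9-fold.

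Levels of different genes can be compared only per length. Divided by the length of merged GENCODE exons, the mean ME level was 47.4 CPM per kb for Apoc1, 8.18 for Nrap, 5.17 for Hif3a, 4.10 for Cpne8, 2.59 for Gm14139, 1.24 for Mmp12, 1.10 for D330045A20Rik and 0.650 for Adh6b. Apoc1 thus led the 8 genes that were high in all ME libraries. Its lowest ME library, at 42.9 CPM per kb, exceeded the highest Nrap value of 8.86. Rn7s1, Rn7s2 and Gm15564, high in ME replicate 3 alone, had higher means of 182, 175 and 57.4 CPM per kb. Mmp12, at 1.04 to 1.45 CPM per kb over the ME libraries, overlapped D330045A20Rik, at 0.986 to 1.23, so this pair is not separated by its spread. The other neighbouring genes in this order did not overlap.

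**Figure D2:**
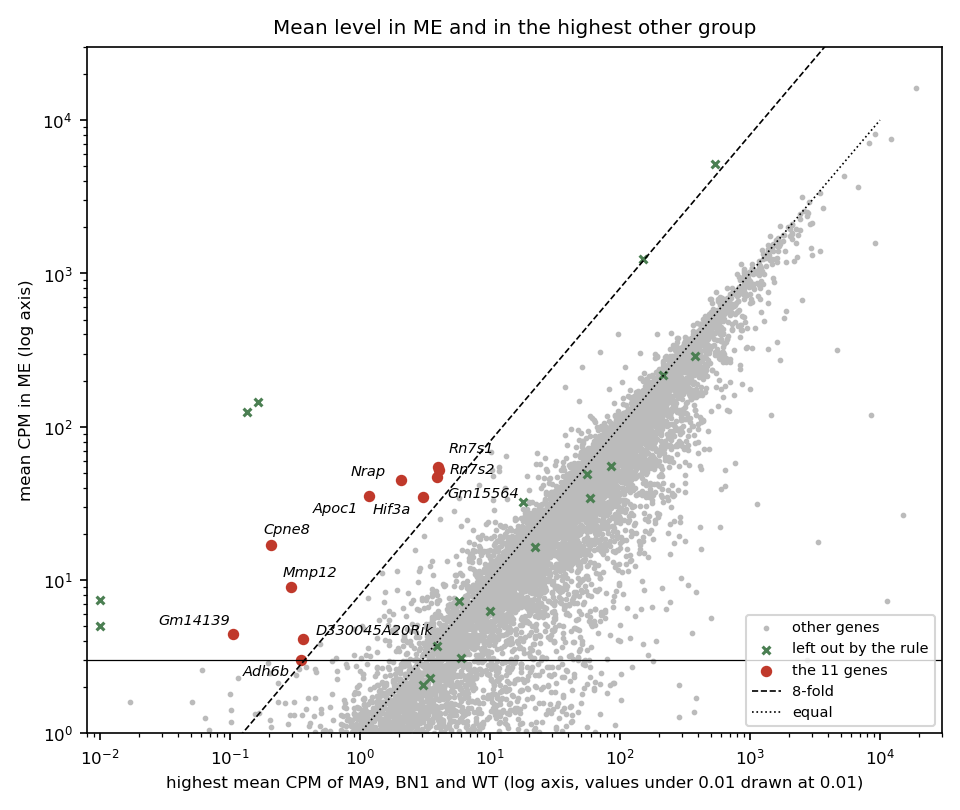
Mean CPM in ME (y, log axis) against the highest mean CPM of MA9, BN1 and WT (x, log axis) for genes with at least 1 CPM in ME; the dashed line marks 8-fold, the dotted line equality and the horizontal line 3 CPM. The 11 genes lie above the dashed line, Adh6b closest to it at 8.64-fold. Crosses are the Hox and other genes left out by the rule, whatever their ratio, and no Hox gene met both limits.

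Membership is sharp for some genes and narrow for others. Just inside the 8-fold limit were Adh6b at 8.64-fold, D330045A20Rik at 11.2-fold, Hif3a at 11.3-fold and Gm15564 at 12.02-fold. Just outside were Mamdc2 at 7.69-fold, Pdgfrl at 7.55-fold, Gm14085 at 6.64-fold and Smkr-ps at 6.63-fold. Without ME replicate 2, MA9 replicate 2 or MA9 replicate 3, Adh6b dropped out. A 4-fold limit gave 40 genes, and a 16-fold limit kept 5, namely Cpne8, Gm14139, Mmp12, Apoc1 and Nrap.

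Rn7s1 and Rn7s2 encode near-identical copies of the 7SL RNA, the RNA backbone of the signal recognition particle. This RNA is made by RNA polymerase III and is not polyadenylated, and reads from either copy may be split between them. In ME replicate 3, Rn7s1 stood at 157 CPM, Rn7s2 at 151 CPM and the antisense transcript Gm15564 at 135 CPM. In ME replicates 1 and 2 the levels were 2.18 and 4.24 CPM for both Rn7s1 and Rn7s2, and 3.16 and 3.04 CPM for Gm15564. Group means outside ME were 1.52 to 4.05 CPM for the 7SL copies and 2.89 to 3.92 CPM for Gm15564. Without ME replicate 3, the ratio of ME to the highest other group was 0.800 for Rn7s1, 0.792 for Rn7s2 and 0.792 for Gm15564, so none of the 3 would be in the set. Parp9 and Kpna1, which Gm15564 overlaps on the opposite strand, did not stand out in that library. They were at 37.3 and 80.9 CPM in ME replicate 3, against 36.7 and 74.3 in ME replicate 1 and 41.3 and 77.6 in ME replicate 2. Moving with the same library were 2 genes left out by the rule, LOC101056014 at 14556 CPM and Lars2 at 3451 CPM, where the other ME libraries held at most 465 and 142 CPM. All of these genes, Rn7s1, Rn7s2, Gm15564, LOC101056014 and Lars2, are counted among the structural RNA-like genes. The share of 1.88% therefore includes their levels and is not a separate observation. What raised them in this library was not tested.

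**Figure D3:**
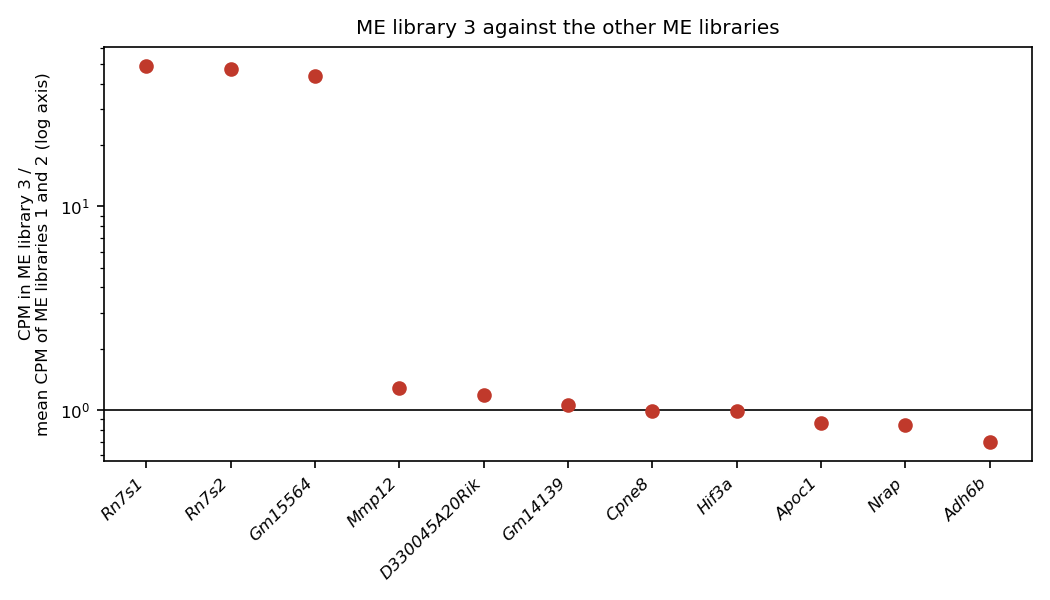
CPM in ME library 3 divided by the mean CPM of ME libraries 1 and 2 (y, log axis) for each of the 11 genes; the line marks equality. Rn7s1, Rn7s2 and Gm15564 lie at 43.5 to 49.0, and the other 8 genes between 0.697 and 1.28.

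The rule did not use differences among MA9, BN1 and WT, and these were tested for each gene in a fit to all 15334 genes that passed the filter on low counts. All 11 genes are among them, but Cpne8, Mmp12, Gm14139, D330045A20Rik and Adh6b passed through their level in ME alone, the group they were selected for. When the filter and fit used only the compared groups, these 5 were not tested. That left 6 genes between BN1 and WT and between BN1 and MA9, and 5 between MA9 and WT, where Nrap was not tested either. Their values below are given for each gene, and nothing is read from the number called, since the set was chosen to be low in these groups. The comparisons share libraries and are read one by one. Log2 fold changes are edgeR quasi-likelihood estimates ± SE with Benjamini-Hochberg adjusted p over all genes tested. For genes with few counts this SE understates counting error.

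Between BN1 and WT, 4 of the 11 genes were called, 2 higher and 2 lower, against 79.2% of all genes tested (38.4% higher and 40.8% lower). Nrap averaged 2.07 ± 0.313 CPM in BN1 and 0.451 ± 0.162 CPM in WT (SD, n = 3 each), a log2 difference of 2.06 ± 0.27 (adjusted p = 1.2e-07), and the groups did not overlap. Apoc1 averaged 0.624 ± 0.288 CPM in BN1 and 1.18 ± 0.0846 CPM in WT, lower by log2 -1.06 ± 0.28 (adjusted p = 0.0015) and again without overlap. D330045A20Rik had no counts in BN1 and 22 in WT, and was at least 8.73-fold lower in BN1 (adjusted p = 1.0e-05, in the filter through ME alone). Gm14139 had 8 counts in BN1, 6 of them in replicate 3, and none in WT, a level at least 2.24-fold higher in BN1 (adjusted p = 0.017, likewise in the filter through ME alone). Without BN1 replicate 3 this call was lost (adjusted p = 0.12). With only the compared groups, 2 of the 6 genes tested were called, Nrap higher and Apoc1 lower, against 81.6% of all genes tested in that fit.

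Between MA9 and WT, 3 of the 11 genes were called, 2 higher and 1 lower, against 80.1% of all genes tested (39.3% higher and 40.8% lower). Adh6b had 21 counts in MA9, present in all 3 libraries, and none in WT, at least 6.94-fold higher in MA9 (adjusted p = 0.00022, in the filter through ME alone). Apoc1 averaged 0.676 ± 0.123 CPM in MA9 and 1.18 ± 0.0846 CPM in WT, lower by log2 -0.97 ± 0.29 (adjusted p = 0.0034), without overlap. Hif3a averaged 3.06 ± 0.368 CPM in MA9 and 1.97 ± 0.476 CPM in WT, a log2 difference of 0.46 ± 0.19 (adjusted p = 0.026). The Hif3a call was lost without WT replicate 2 (adjusted p = 0.17), without MA9 replicate 3 (adjusted p = 0.11), in a fit to MA9 and WT alone (adjusted p = 0.055), and under DESeq2 (adjusted p = 0.051) and limma-voom (adjusted p = 0.059). Mmp12, with 18 counts in MA9 and 5 in WT, did not pass (adjusted p = 0.053). Leaving out ME replicate 3, which enters through the shared estimate of spread, gave 6 calls against 79.8% of all genes tested. The added ones were Rn7s1 (log2 -1.33 ± 0.34, adjusted p = 0.0016), Rn7s2 (log2 -1.33 ± 0.33, adjusted p = 0.0011) and Gm15564 (log2 -0.61 ± 0.18, adjusted p = 0.0028), all lower in MA9. A fit to MA9 and WT alone also called these 3 lower, together with Apoc1, and none of the 5 genes tested higher. In that fit 82.1% of all genes tested were called.

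Between BN1 and MA9, the 2 groups carrying different fusions, 4 of the 11 genes were called, 1 higher and 3 lower in BN1, against 67.7% of all genes tested (32.8% higher and 34.9% lower). Nrap averaged 2.07 ± 0.313 CPM in BN1 and 0.296 ± 0.152 CPM in MA9, a log2 difference of 2.82 ± 0.30 (adjusted p = 2.6e-09), with every BN1 library above every MA9 library. Mmp12 had 2 counts in BN1 and 18 in MA9, which put it 10.6-fold lower in BN1 with a counting interval of 2.54 to 94.4 (adjusted p = 0.0028). D330045A20Rik had no counts in BN1 and 22 in MA9, at least 8.65-fold lower in BN1 (adjusted p = 2.6e-05). Adh6b had none in BN1 and 21 in MA9, at least 8.26-fold lower in BN1 (adjusted p = 0.00011). Mmp12, D330045A20Rik and Adh6b were in this test through their ME level alone. Cpne8 did not pass in any of these comparisons, with an adjusted p of 0.12 here on 15 and 6 counts. Leaving out ME replicate 3 gave 6 calls against 67% of all genes tested. The added ones were Rn7s1 (log2 1.48 ± 0.33, adjusted p = 0.00060) and Rn7s2 (log2 1.48 ± 0.31, adjusted p = 0.00038), both higher in BN1. A fit to BN1 and MA9 alone tested 6 genes and called Nrap, Rn7s1 and Rn7s2, all higher in BN1, against 73.2% of all genes tested in that fit.

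**Figure D4:**
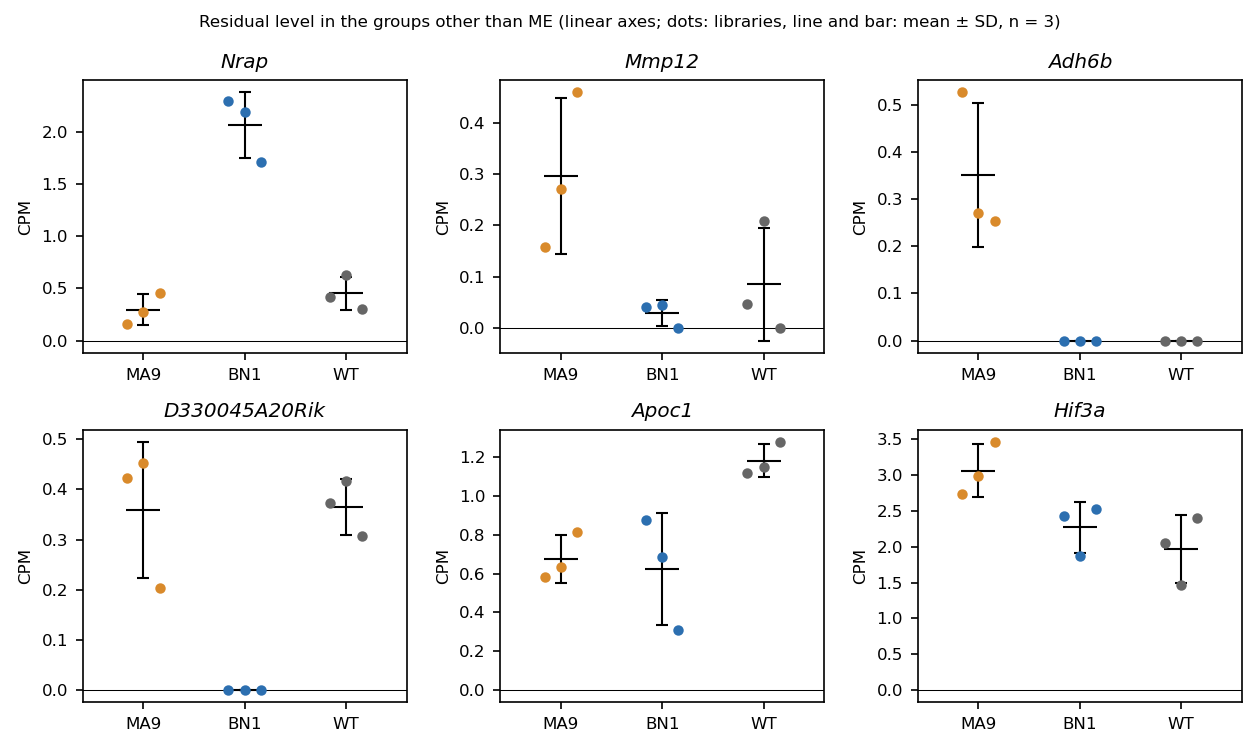
CPM (linear axis) of 6 of the genes in the libraries of MA9, BN1 and WT; dots are libraries, and line and bar are the mean and SD of 3. Nrap is highest in BN1 at 1.71 to 2.30 CPM, Adh6b has counts in MA9 alone among these groups, D330045A20Rik has no counts in BN1, and Apoc1 is highest in WT at 1.12 to 1.28 CPM.

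Whether the genes next to the set also differed between the MLL fusions was examined with the nearest annotated gene on each side. Of 22 such neighbours, 9 were tested and 6 were called between ME and MA9, 4 higher and 2 lower in ME, against 40.6% of all genes tested (20.4% higher and 20.2% lower). Among the 9, Rps29, Lrr1, Nemf, Parp9 and Kpna1 lie beside Rn7s1, Rn7s2 or Gm15564, which were high in ME replicate 3 alone. None of the 6 differed by 2-fold. Rnf128, a ubiquitin ligase gene beside D330045A20Rik, averaged 17.6 ± 1.26 CPM in ME and 11.8 ± 0.524 CPM in MA9 (log2 0.63 ± 0.08, adjusted p = 4.5e-07). Parp9, an ADP-ribosyltransferase family gene, differed by log2 0.45 ± 0.07 (adjusted p = 3.0e-06), and Kpna1, a nuclear import gene, by log2 0.28 ± 0.06 (adjusted p = 0.00025). Zfp937, beside Gm14139, differed by log2 0.90 ± 0.36 (adjusted p = 0.049), a call that 11 of 22 alternatives lost. These include leaving out ME replicate 2 (adjusted p = 0.23), ME replicate 3 (0.11), MA9 replicate 1 (0.21), MA9 replicate 3 (0.090), WT replicate 1 (0.053), BN1 replicate 2 (0.053) and BN1 replicate 3 (0.050).

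Apoe, the apolipoprotein E gene beside Apoc1, was lower in ME than in MA9. It stood at 13.0, 9.59 and 8.58 CPM in ME, against 22.1, 17.4 and 19.0 CPM in MA9 (log2 -0.84 ± 0.15, adjusted p = 0.00024). WT libraries held 271, 301 and 308 CPM, so Apoe was lower in ME than in WT by log2 -4.93 ± 0.13 (adjusted p = 5.8e-15). Between ME and BN1, at 9.41, 9.52 and 12.7 CPM, no difference was called (log2 -0.02 ± 0.16, adjusted p = 0.93). Ppp5c, a phosphatase gene beside Hif3a, was lower in ME than in MA9 by log2 -0.18 ± 0.05 (adjusted p = 0.0025).

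Within 200 kb of the 11 genes, a window chosen after seeing the data, 67 genes were tested and 28 were called between ME and MA9, 15 higher and 13 lower, a share near the 40.6% of all genes tested. The 67 include genes near Rn7s1, Rn7s2 and Gm15564, which were high in a single ME library. Of the 28 called, 4 differed by at least 4-fold. Mmp8, neutrophil collagenase, in the cluster of Mmp12, averaged 120.0 ± 3.15 CPM in ME and 16.5 ± 1.93 CPM in MA9 (log2 2.92 ± 0.07, adjusted p = 1.5e-21). Its level was 123 ± 5.48 CPM in BN1 and 1461 ± 128 CPM in WT, so Mmp8 was not selective for ME. Mttp, a lipid transfer protein gene near Adh6b, averaged 1.38 ± 0.397 CPM in ME and 12.5 ± 1.11 CPM in MA9 (log2 -3.13 ± 0.18, adjusted p = 3.4e-14). Dact3, a regulator of Wnt signalling, and Ccdc8, both near Hif3a, were lower in ME by log2 -3.03 ± 0.21 (adjusted p = 1.4e-12) and on 1 count against 47 (adjusted p = 7.1e-06).

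**Figure D5:**
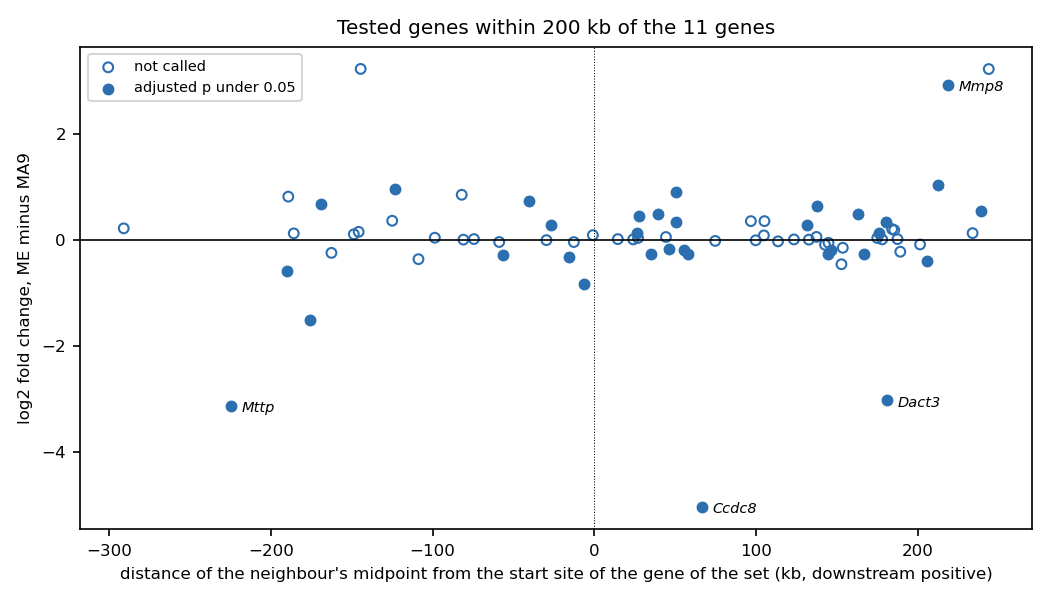
Log2 fold change between ME and MA9 (y) for tested genes within 200 kb, against the distance of their midpoint from the start site of the gene of the set (x, kb); filled points have an adjusted p under 0.05, and a gene near both Rn7s1 and Rn7s2 is drawn for each. Most points lie near 0, and Mmp8 is the called gene at least 4-fold higher in ME.

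Relatives of the set by name mostly had their own patterns. Of 22 other Mmp genes, 11 were tested. Between ME and WT, 10 were called, 2 higher and 8 lower, against 79.2% of all genes tested (39% higher and 40.2% lower). Nothing is read from the lower count, since Mmp11, Mmp14, Mmp23 and Mmp27 passed the filter through WT. They averaged 1.18 to 9.47 CPM in WT and at most 0.418 CPM in any other group. Between ME and MA9, 6 were called, 3 in each direction, against 40.6% of all genes tested. Between ME and BN1, 5 were called, all lower in ME, against 64.7% of all genes tested (33% higher and 31.8% lower). Mmp19 averaged 47.2 CPM in ME, 37.2 in MA9, 49.3 in BN1 and 3.69 in WT, and was higher in ME than in WT by log2 3.56 (adjusted p = 1.1e-22). Mmp9, gelatinase B of neutrophil granules, averaged 3.01 CPM in ME, 14.6 in MA9, 99.0 in BN1 and 2753 in WT (log2 -9.96 between ME and WT, adjusted p = 1.7e-34). The 8 neutrophil markers, Mmp9 among them, summed to 158 to 201 CPM in ME, 542 to 582 in MA9, 4305 to 4537 in BN1 and 50700.4 to 53884 in WT, and their part in the Mmp8 and Mmp9 differences was not tested.

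Of 8 other copine genes, 5 were tested and all 5 were lower in ME than in WT, against 40.2% of all genes tested that were lower. Nothing is read from this count, since Cpne7 passed the filter through WT alone. It averaged 2.50 CPM in WT and at most 0.0461 CPM in any other group. Cpne5 was also highest in WT, at 2.24 CPM against at most 0.595 CPM elsewhere. Between ME and MA9, 3 of the 5 were called, 1 higher and 2 lower, against 40.6% of all genes tested (20.4% higher and 20.2% lower). The higher one was Cpne1, at 111 ± 7.86 CPM in ME and 103 ± 3.95 CPM in MA9 (log2 0.17 ± 0.05, adjusted p = 0.014). Cpne2 averaged 50.4 CPM in ME, 76.5 in MA9, 76.9 in BN1 and 163 in WT (log2 -1.81 between ME and WT, adjusted p = 1.1e-21). Cpne3 averaged 63.1 CPM in ME, 95.2 in MA9, 133 in BN1 and 233 in WT (log2 -2.0 between ME and WT, adjusted p = 3.2e-19). Both were also lower in ME than in MA9, by log2 -0.54 (adjusted p = 4.1e-09 for Cpne2 and 3.1e-07 for Cpne3). Between ME and BN1, these 2 alone of the 5 were called, both lower in ME. The share of all genes tested there was 64.7% (33% higher and 31.8% lower). None of the other Apoc genes passed the filter, and of the other Adh genes Adh5 alone did, at 72.2 CPM in ME and 71.0 CPM in MA9, with no call between them.

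None of the 11 genes was on a list of 32 non-Hox genes often reported as direct targets of MLL fusions, of which 30 were tested. Between ME and WT, 24 were called, 12 higher and 12 lower, against 79.2% of all genes tested (39% higher and 40.2% lower). The median log2 was 0.01 over the list and -0.01 over all genes. The RNA-binding protein gene Igf2bp3 averaged 121 ± 2.82 CPM in ME and 1.61 ± 0.495 CPM in WT (log2 6.12 ± 0.10, adjusted p = 1.3e-27). Cdk6, a cell cycle kinase gene, differed by log2 3.66 ± 0.05 (adjusted p = 1.4e-28), and the repressor Gfi1 by log2 3.75 ± 0.05 (adjusted p = 5.4e-29). Lower in ME were Satb1, at 0.350 ± 0.0863 CPM in ME and 108 ± 6.38 CPM in WT (log2 -8.36 ± 0.15, adjusted p = 3.8e-27), and Zfpm1 (log2 -8.28 ± 0.16, adjusted p = 1.0e-21), which encode a chromatin organiser and a cofactor of GATA factors.

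Between the 2 MLL fusions, 27 of the 30 were called, 9 higher and 18 lower in ME. Of all genes tested, 40.6% were called (20.4% higher and 20.2% lower). The median log2 was -0.37 over the list and 0.00 over all genes. Eya1, a transcriptional coactivator gene, had no counts in ME and averaged 84.0 ± 3.92 CPM in MA9 (adjusted p = 6.2e-22), and Six4 had 3 counts in ME and 3826 in MA9 (adjusted p = 9.6e-23). Higher in ME were Hmga2, an architectural chromatin protein gene, at 10.3 ± 0.164 CPM against 1.85 ± 0.382 CPM in MA9 (log2 2.52 ± 0.15, adjusted p = 2.7e-14), and Prom1, the gene of CD133, at 35.7 ± 2.03 CPM against 17.0 ± 0.554 CPM in MA9 (log2 1.13 ± 0.07, adjusted p = 3.4e-13). With a 2-fold minimum, 13 of the 30 were called. The share of all genes tested at that minimum is not given here, so nothing is read from this count.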

How the data were processed

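The table holds raw read counts per gene, deposited by the authors without normalization, for 35976 genes in 12 libraries. The submitters' processing notes name HISAT2, featureCounts, DESeq2 and mm10; versions, annotation and strand use were not given in the sources used here. Libraries were stranded and poly(A)-selected (TruSeq), per the labels' protocols.

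CPM were computed from column sums. The genes and lists were chosen with earlier results of these data known. Counts were tested with edgeR 4.0.16 (R 4.3.3; filterByExpr, TMM factors 0.927 to 1.05, robust quasi-likelihood fit to all 12 libraries with 1 mean per group, biological coefficient of variation 5.87%), and called at an adjusted p under 0.05. Bounds use a floor of 3 counts over a group, and ratios of counts have exact conditional 95% intervals. The code was tested on simulated data with 100 genes changed at each size, where 4-fold changes were recovered in 94% to 95% of cases and 2-fold changes in 76% to 83%. Positions and promoters are from RefSeq (GRCm38.p6; all 11 genes matched, 1 by a synonym), and exon lengths from GENCODE release 21 for mouse.

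Members were named freely. From the other lists, up to 4 called genes per direction with the largest changes, and neighbours changed at least 4-fold, were named; some that this selects are not reported here. Epas1 and the muscle and liver lists were chosen after their values were seen. Alternatives were DESeq2 1.42.0, limma-voom (limma 3.58.1), other scaling and filters, a fit to the compared groups alone, a 2-fold minimum, a replicate block and leaving out each library. A fit without structural RNA-like genes and the 200 kb window were added after seeing the data. No pair of replicates looked like a repeated deposit of 1 library (mean chi-square per gene at least 2.00). Python 3.11.15, pandas 2.3.3, numpy 2.4.6, scipy 1.17.1 and matplotlib 3.10.9 were used.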

Additional observations from a re-analysis of the deposited data

Results flagged for a closer look

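For 4 genes of the set, the changes in the other leukemias relative to WT differed from each other. This was tested between BN1 and MA9 directly with edgeR's quasi-likelihood test and Benjamini-Hochberg adjustment. Of all genes tested, 67.7% were called in this comparison, so nothing is read from the number of genes. Nrap was higher in BN1 than in MA9 by log2 2.82 (adjusted p = 2.6e-09). Mmp12 was lower in BN1 by log2 -3.11 (adjusted p = 0.0028), on 2 counts in BN1 and 18 in MA9. D330045A20Rik was at least 8.65-fold lower in BN1 (adjusted p = 2.6e-05), and Adh6b at least 8.26-fold lower (adjusted p = 0.00011), both with no count in BN1. Mmp12, D330045A20Rik and Adh6b passed the filter on low counts through their ME level alone, and a fit to BN1 and MA9 alone tested only Nrap of the 4. Every BN1 library lay on the same side of every MA9 library for the 4 genes. The share of all genes separated in this way is not given here, so nothing is read from it.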

How the results depend on the processing

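The number of genes that met the selection rule depended on its limits. It was 40 with a 4-fold limit, 5 with a 16-fold limit, 26 with a limit of 1 CPM, 7 with a limit of 10 CPM, and 7 when the lowest ME library was set against the highest other library. With each library left out in turn it was 10 to 12, and without ME replicate 3 the 10 genes were 8 of the 11 plus Gm5784 and Sod3. Without structural RNA-like genes it was 8. That class holds Rn7s1, Rn7s2 and Gm15564, so their loss was fixed in advance and says nothing about the other genes.

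With each library left out in turn, 3 to 4 of the set were called between BN1 and WT, 3 to 6 between MA9 and WT and 4 to 6 between BN1 and MA9. Among neighbours 5 to 6 were called, and among MLL targets 24 to 25 between ME and WT and 23 to 27 between ME and MA9. The fit to all 12 libraries called 79.2% of all genes tested between BN1 and WT and 80.1% between MA9 and WT. It called 67.7% between BN1 and MA9, 79.2% between ME and WT and 40.6% between ME and MA9. Nothing is read from these ranges. Fitting only the compared groups gave 2 calls between BN1 and WT among 6 genes tested (1 higher, 1 lower), against 81.6% of all genes tested. It gave 4 between MA9 and WT among 5 (all lower), against 82.1%. Between BN1 and MA9 it gave 3 among 6 (all higher), against 73.2%. The genes not tested there fell below the filter without ME. Leaving out ME replicate 3 gave 6 between MA9 and WT, against 79.8% of all genes tested, and 6 between BN1 and MA9, against 67%. In edgeR, a 2-fold minimum gave 1 between MA9 and WT, 0 neighbours (6 at an unadjusted p under 0.05 with no minimum) and 13 MLL targets between ME and MA9. The share of all genes tested at that minimum is not given here. The 200 kb window gave 28 genes. The cause of the other shifts was not tested.

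With a replicate block, the counts were 4, 3 and 4 of the set between BN1 and WT, MA9 and WT, and BN1 and MA9, 6 neighbours, and 24 and 27 MLL targets, as without it. The share of all genes called with that block is not given here, so nothing is read from these counts. Same-numbered libraries did not deviate together (correlations -0.081 to 0.062), and 4 of 12 libraries correlated best with their own number, so the numbers were not taken to pair samples.

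Of 33 results for single named genes, 30 kept their call under all alternatives that gave them a value, apart from the 2-fold minimum. The exceptions were Hif3a between MA9 and WT, Gm14139 between BN1 and WT and Zfp937 between ME and MA9. No sign changed. Depth limits Mmp12, Cpne8, Gm14139, D330045A20Rik and Adh6b outside ME, where each group held at most 22 counts.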

Other observations

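Between 4-fold and 8-fold higher in ME than in every other group were 29 further genes, which are given as a description without a test. In 28 of them no ME library overlapped another library, which largely follows from how they were chosen. The exception was Rn7sk, at 0.741, 1.24 and 23.1 CPM in ME replicates 1, 2 and 3. The highest other group was MA9 for 12, WT for 12 and BN1 for 5. Slc28a2, a nucleoside transporter gene, averaged 405 CPM in ME, 36.7 in MA9, 39.0 in BN1 and 96.2 in WT. Cfap57, a gene of cilia and flagella, averaged 308 CPM in ME, 69.9 in MA9, 18.1 in BN1 and 1.14 in WT. Gpnmb, a transmembrane glycoprotein gene of macrophages and melanocytes, averaged 244 CPM in ME, 51.1 in MA9, 17.2 in BN1 and 0.789 in WT. Mertk, a receptor tyrosine kinase gene for the uptake of dying cells, averaged 11.9 CPM in ME, 1.22 in MA9, 0.427 in BN1 and 2.88 in WT. Ptprt, a receptor phosphatase gene, averaged 51.2 CPM in ME and 11.8 in MA9, with 0 CPM in BN1 and 0.0156 in WT. These 5 were chosen after their values were seen. Of the imprinted non-coding RNAs that the rule left out, Rian averaged 145 CPM and Meg3 124 CPM in ME, against at most 0.165 and 0.136 CPM in any other group. AF357359 averaged 7.37 CPM and Mirg 5.01 CPM in ME, with no counts elsewhere.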
